A study of Mus musculus with 6 samples.

Results

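The ST6 and ST8 sialyltransferases described here are 10 genes out of the 24421 listed in each library: St6galnac1 to St6galnac6, St6gal1, St6gal2, St8sia1 and St8sia6. They were chosen by symbol because St6galnac1 and St6galnac2 were far higher in Sox9 KO than in control libraries, so the differences between the groups are given as descriptions, with no test. RNA-seq libraries, 1 for each of 3 control and 3 Sox9 KO male mice, came from olfactory bulb cells that had been sorted for TurboRFP 4 weeks after injection of AAV-GFAP-iCre-P2a-TurboRFP, a virus in which the GFAP promoter drives Cre recombinase together with a red fluorescent protein. Both groups received this virus. KO mice were adult Sox9fl/fl animals, in which Cre removes the exons of Sox9 between the loxP sites, and controls were adult C57BL/6J animals without a floxed allele. The floxed allele, with any flanking sequence that came with it from its 129S7 origin, was thus present in KO mice alone, and its effect cannot be told apart from that of the deletion. The GFAP promoter decides which cells delete Sox9, and the study judged the purity of the sorted cells from known cell-type markers in the RNA-seq data, not by a check after the sort.

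Sialyltransferases are Golgi enzymes that move sialic acid from its activated form, CMP-sialic acid, onto the ends of the sugar chains of proteins and lipids. The ST6GalNAc enzymes attach it to N-acetylgalactosamine: St6galnac1 and St6galnac2 act on the O-linked chains of glycoproteins such as mucins, and the other four mostly on chains that already carry a sialic acid, including gangliosides, the sialylated lipids that are abundant in brain. St6gal1 and St6gal2 cap the galactose of N-linked chains. The ST8Sia enzymes add a sialic acid to another sialic acid. St8sia1 makes ganglioside GD3 in this way, and St8sia6 acts mainly on O-linked chains. Sialic acid on cell surfaces is read by the Siglec receptors, several of which are made by microglia and macrophages.

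Since related genes can share reads, the coding sequences were compared first. Over the 45 pairs of members, coding sequences aligned at 39.3% to 56.9% identity, and the longest identical run in any 2 coding sequences was 19 bases. Identical runs of up to 40 bases occurred only when the untranslated ends were included. The most similar stretch of 60 coding bases is shown for the 3 pairs of members that are also neighbours in the genome, with bases shared by both genes of the pair in capitals. St6galnac1 and St6galnac2 shared 48 of the 60 bases, in exons 8 and 9 of their 9 exons. St6galnac3 and St6galnac5 shared 42 of 60 in exon 4 of 5, and St6galnac4 and St6galnac6 shared 42 of 60, in exons 4 and 5 of 6 and exons 5 and 6 of 7. The sequences are those of GENCODE transcripts on GRCm38 (mm10), given from 5′ to 3′ of the coding strand.
St6galnac1, chr11:116765902-116766111, minus strand: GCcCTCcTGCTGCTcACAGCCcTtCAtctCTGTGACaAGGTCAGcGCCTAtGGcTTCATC
St6galnac2, chr11:116677661-116678504, minus strand: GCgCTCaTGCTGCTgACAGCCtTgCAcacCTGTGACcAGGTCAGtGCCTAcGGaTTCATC
St6galnac3, chr3:153206644-153206703, minus strand: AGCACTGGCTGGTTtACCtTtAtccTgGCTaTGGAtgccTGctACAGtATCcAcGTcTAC
St6galnac5, chr3:152840170-152840229, minus strand: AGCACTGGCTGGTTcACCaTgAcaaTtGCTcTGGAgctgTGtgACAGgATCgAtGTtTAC
St6galnac4, chr2:32594385-32595735, plus strand: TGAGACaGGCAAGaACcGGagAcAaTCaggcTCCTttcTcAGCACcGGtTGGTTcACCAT
St6galnac6, chr2:32615170-32618538, plus strand: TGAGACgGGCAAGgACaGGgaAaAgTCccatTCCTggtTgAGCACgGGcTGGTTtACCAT
In these stretches the paralogs differed at 12 to 18 of 60 bases. The pairs were shown as neighbours in the genome and are not the most alike. St6galnac5 and St6galnac6 had the highest identity, 56.9%, and St8sia1 and St8sia6 the coding run of 19 bases, and their stretches are not shown.

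Each deposited value is a gene's read count after division by the size factor of its library, here called a normalized count. Between 18242129 and 86906527 reads fell on genes in a library, and 1 read was worth between 0.395 and 1.58 normalized counts. Sox9 itself was measured at 4921 to 6562 normalized counts in control and at 52.6 to 64.3 in KO libraries. The sorted cells carry the label of astrocytes, and the 12 astrocyte markers summed to between 502313 and 564901 in control but only to between 34445 and 44635 in KO libraries, with all 12 lower in KO. Sox9, the deleted gene, is itself on this list. The 12 microglia and macrophage markers were all higher in KO and summed to between 181175 and 206748 in control and between 652635 and 769333 in KO libraries, so that in KO libraries they exceeded the astrocyte markers. In bulk samples of this kind, fewer cells of a type and less RNA per cell cannot be told apart. KO replicate 3 stood apart in the list of mucous and ciliated epithelium markers. Without Foxj1, a regulator of motile cilia that made up 93.7% of the control sum, the other 9 genes of this list summed to 1360 there, against 62.5 and 50.1 in the other KO libraries and 46.8 to 75.7 in control libraries. The gene of the secreted mucin Muc2 was at 527.1 normalized counts in KO replicate 3 and at 8.95 or less in each other library.

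Of the 10 members, all of which passed the filter of a mean of at least 1 normalized count, 4 were higher in every KO library than in every control library and 5 were lower in every KO library. Among all 18413 genes tested, 32.4% lay entirely above and 34.7% entirely below. With a limma adjusted p under 0.05 and a change of at least 1.5-fold, which is what "called" means here, 5 members were called higher, 4 lower and 1 neither, against 22.2% and 28.8% of all genes tested, and nothing is read from these counts because the members were picked on this contrast. The median log2 difference over the members was 0.35, and over all genes tested it was -0.07.

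**Figure D1:**
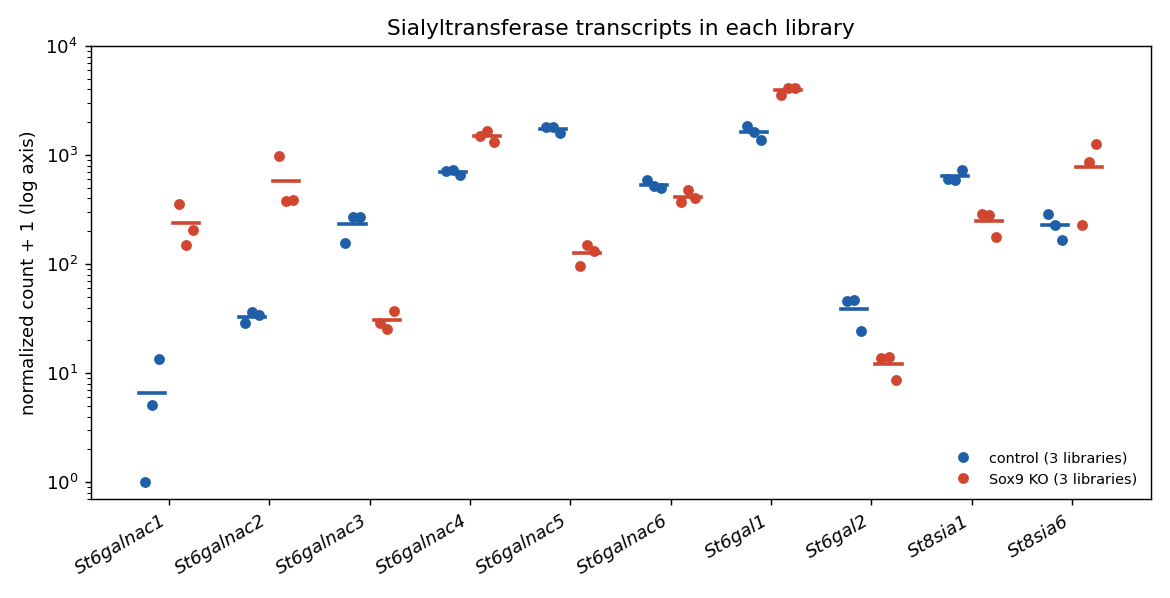
Normalized count + 1 (log axis) of each sialyltransferase in the 3 control libraries (blue) and the 3 Sox9 KO libraries (red), with bars at the group means. St6galnac1 and St6galnac2 are near the bottom of the range in control libraries and at 149.6 normalized counts or more in every KO library. St6galnac3 and St6galnac5 are lower in every KO library than in every control library, and the groups of St8sia6 overlap.

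St6galnac1, which starts sialylation of the innermost sugar of O-linked chains, was close to undetected in control libraries. Its normalized counts were 0, 4.13 and 12.6 in control replicates 1, 2 and 3, from 0, 6 and 8 reads, and 356.4, 149.6 and 206.6 in KO replicates 1, 2 and 3, from 359, 379 and 136 reads. A count of 0 reads in control replicate 1 allows a level of up to 4.38 normalized counts there. All KO libraries lay above all control libraries. On the log2(normalized count + 1) scale used for every difference here, KO exceeded control by 5.76 (SE 0.81, n = 3 per group). The size of this difference depended on the few control reads, since it was 4.61 with a pseudocount of 5 and 6.99 with a pseudocount of 0.1. Without any 1 library it ran from 4.74 (without control replicate 1) to 6.63 (without control replicate 3). KO replicate 3, the library with the highest mucous epithelium markers, held the middle value of the KO libraries, and without it the difference was 5.82. Any part of epithelial cells in the difference was not tested.

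St6galnac2, which acts on similar O-linked chains once a galactose is present, was at 27.8, 35.1 and 33.1 normalized counts in control and at 978.8, 378.6 and 382.8 in KO libraries. The control libraries lay close together, whereas KO replicate 1 was well above the other KO libraries. The group means were 32.0 ± 3.79 and 580.1 ± 345.3 (SD, n = 3), 18.1 times higher in KO, and the log2 difference was 3.99 (SE 0.35). Without KO replicate 1 it was 3.54.

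St6galnac3, which sialylates chains that already end in sialic acid, was at 156.4, 269.8 and 271.1 normalized counts in control and at 27.8, 24.5 and 36.5 in KO libraries, without overlap. The KO mean was 7.86 times lower, with a log2 difference of -2.91 (SE 0.31). St6galnac5, known in brain for the synthesis of alpha-series gangliosides, had the largest negative difference of the members. It was at 1824, 1796 and 1601 normalized counts in control and at 94.3, 148.8 and 132.2 in KO libraries, 13.9 times lower in KO, with a log2 difference of -3.81 (SE 0.18). The sum of the astrocyte markers was 13.7 times lower.

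St6galnac4 and St6galnac6, whose products overlap with those of St6galnac3 and St6galnac5, moved in opposite directions and by less. St6galnac4 was at 711.7, 730.9 and 662.0 normalized counts in control and at 1484, 1644 and 1308 in KO libraries, a log2 difference of 1.07 (SE 0.12). St6galnac6 was at 584.5, 523.0 and 499.7 in control and at 368.3, 475.3 and 402.6 in KO libraries. Its highest KO library was just below its lowest control library, and the log2 difference of -0.37 (SE 0.14) did not reach 1.5-fold. St6galnac6 was called lower only when every library was scaled to the same total, at -0.61, or at -0.70 when the ribosomal transcript Rn45s was left out of that total.

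**Figure D2:**
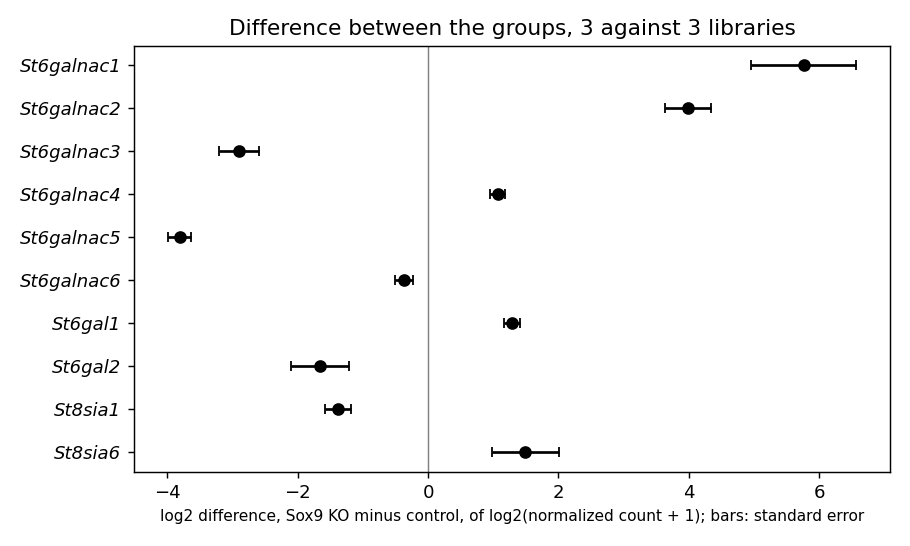
Log2 difference between the group means of Sox9 KO and control libraries for each member, with bars for the standard error from the fit over all genes (3 against 3 libraries). Values run from -3.81 for St6galnac5 to 5.76 for St6galnac1, and the widest bar belongs to St6galnac1, which had 14 reads in all control libraries together.

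St6gal1, the widely expressed enzyme that caps N-linked chains, was at 1837, 1631 and 1367 normalized counts in control and at 3556, 4111 and 4079 in KO libraries, 2.43 times higher in KO, with a log2 difference of 1.29 (SE 0.12). Its paralog St6gal2, which has a narrower range of substrates and is expressed mainly in brain, was at 45.3, 45.4 and 23.6 normalized counts in control and at 12.9, 13.03 and 7.60 in KO libraries. These rest on 112 reads in control and 51 in KO libraries in all. The groups of St6gal2 did not overlap, and the log2 difference was -1.66 (SE 0.45), or -0.83 after quantile normalization, where St6gal2 was no longer called.

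St8sia1, the GD3 synthase, was at 596.2, 585.6 and 725.1 normalized counts in control and at 286.9, 280.7 and 176.2 in KO libraries, 2.56 times lower in KO, with a log2 difference of -1.38 (SE 0.20). St8sia6 was at 286.4, 225.7 and 165.5 in control and at 225.4, 854.3 and 1252 in KO libraries. KO replicate 1 lay within the range of the control libraries, and the other KO libraries were above all of them. The log2 difference was 1.49 (SE 0.51). It was 2.23 without KO replicate 1, and the call was lost when KO replicate 2, KO replicate 3 or any 1 control library was left out, with differences of 0.99 to 1.68. KO replicate 1 was therefore the highest KO library for both St6galnac1 and St6galnac2 and the lowest for St8sia6.

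Compared per kilobase of the longest transcript, the order of the members changed between the groups. In control libraries St6gal1 (357.6 ± 52.3 normalized counts per kb) and St6galnac5 (307.1 ± 21.4) came first and overlapped. They were followed by St6galnac6 (211.3 ± 17.3) and St6galnac4 (193.5 ± 9.80), which overlapped with each other, and then by St8sia1 (70.7 ± 8.63). St8sia6 (29.7 ± 7.94) and St6galnac3 (28.5 ± 8.06) could not be separated, and St6galnac2 (8.78 ± 1.04), St6gal2 (6.28 ± 2.07) and St6galnac1 (2.33 ± 2.69) were lowest, the last pair overlapping. These levels depend on the transcript taken as the length. With the exons of all transcripts as the length, St6galnac4 and St6galnac6 came to 108.2 and 111.3 and St6galnac2 to 4.51, below St6gal2 at 5.17.

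In KO libraries St6gal1 was again first, at 868.9 ± 69.2 normalized counts per kb, followed by St6galnac4 at 407.8 ± 46.4. St6galnac6 (163.8 ± 21.5), St6galnac2 (159.2 ± 94.8), St8sia6 (102.0 ± 67.9) and St6galnac1 (99.3 ± 44.6) each overlapped with the next in the order. St8sia1 (27.6 ± 6.92) and St6galnac5 (22.1 ± 4.93) overlapped below them, and St6galnac3 (3.62 ± 0.76) and St6gal2 (1.84 ± 0.51) came last. With the exons of all transcripts as the length, St6galnac2 was at 81.8 and in place 6, not 4. Of the summed level per kilobase of all members, St6galnac5 made up 25.3% ± 0.42 in control and 1.19% ± 0.25 in KO libraries. St6galnac1 and St6galnac2 together made up 0.93% ± 0.35 in control and 13.96% ± 7.56 in KO libraries (SD, n = 3 each).

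**Figure D3:**
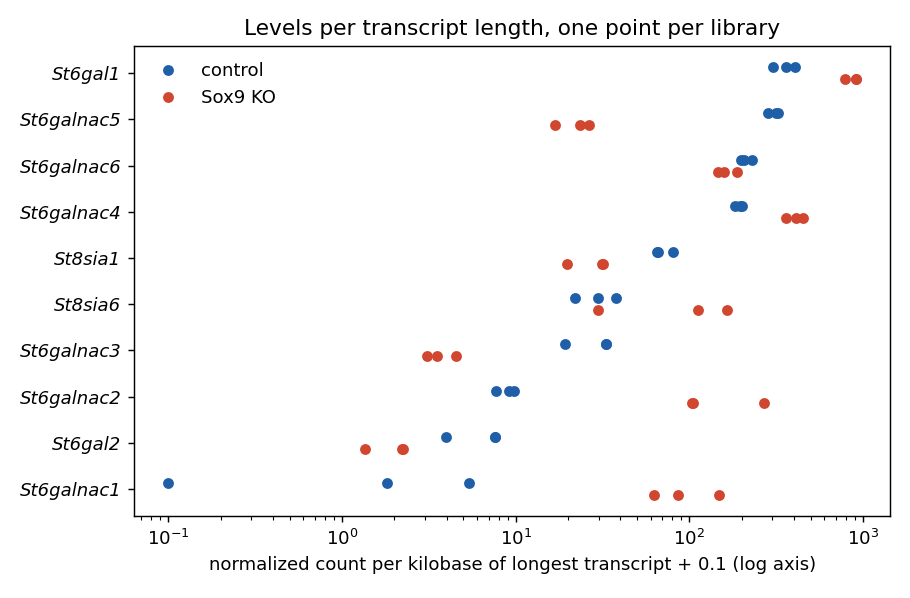
Normalized count per kilobase of the longest transcript, plus 0.1, on a log axis, with 1 point per library (control in blue, Sox9 KO in red) and the members ordered by their control mean. By this length St6galnac5 drops from place 2 in control to place 8 in KO libraries and St6galnac2 moves from place 8 to place 4, and with the exons of all transcripts as the length St6galnac2 moves from place 9 to place 6.

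The marker sums moved with these differences. Set against the summed microglia and macrophage markers of the same library, 7 members were below all control libraries in every KO library, St6galnac4 and St6gal1 among them. St8sia6 overlapped, and St6galnac1 and St6galnac2 were above all control libraries, by 10.7 and 4.65 times. St6galnac1 and St6galnac2 were picked for a strong rise as normalized counts, so these ratios and those below restate values they were picked on. St6galnac4 and St6gal1 were 2.11 and 2.43 times higher in KO as normalized counts, which is less than the 3.81 times by which the microglia and macrophage sum was higher. The border macrophage and monocyte sum was 6.42 times higher in KO, although Lyve1, Pf4, Cd163 and F13a1 were called lower and only Cd74, H2-Ab1, Ms4a7 and Mrc1 higher. Cd74 and H2-Ab1, genes of class II antigen presentation, made up 14.9% of this sum in control and 82.9% in KO libraries, and the other 8 genes summed to 15373 to 22800 in control and 22497 to 26084 in KO libraries, which overlapped. Against the whole sum St6galnac1 and St6galnac2 were above all control libraries by 5.63 and 2.59 times, and against the sum without Cd74 and H2-Ab1, a choice made after seeing the data, by 28.6 and 13.9 times. Set against the astrocyte sum, St6galnac5 overlapped between the groups, at 31.8 to 33.5 per 10000 astrocyte marker counts in control and 27.4 to 34.6 in KO libraries, and the other 9 members were higher in every KO library. How many of all genes lie above or below in the same ratios was not counted. Dividing by a sum that is 3.81 times higher or 13.7 times lower in KO shifts every gene, so nothing is read from these counts. The part of cell makeup in the members' differences was not tested.

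The remaining marker lists give the other cells the sort could hold. Oligodendrocyte precursor markers were all lower in KO (5 of 5), as were those of oligodendrocytes (7 of 7) and olfactory ensheathing cells (6 of 6), and 9 of 10 neuron markers, 3 of 5 mural markers and 4 of 5 olfactory sensory neuron markers were called lower. Of the endothelial markers 2 were called higher and 3 lower, with sums of 1277 to 2315 in control and 1753 to 2253 in KO libraries. B and plasma cell markers summed to 143.4 to 176.8 in control and 969.2 to 1422 in KO libraries, T and NK lymphocyte markers to 173.4 to 359.5 and 536.1 to 706.4, and neutrophil markers to 4136 to 7340 and 12149 to 14645. These last 3 sums were higher in every KO library, and 2 of 6, 2 of 5 and 1 of 4 tested genes were called higher, while 2 of the 4 neutrophil genes were called lower. In KO libraries each sum rested on 1 or 2 genes, which, like Foxj1, were set apart after seeing the data. Jchain and Cd79b, which code for parts of antibodies and of the B cell receptor, made up 97.6% of the B and plasma cell sum in KO libraries, and the other 5 genes summed to 40.9 to 53.6 in control and 16.6 to 45.6 in KO libraries. Cd4 made up 94.9% of the T and NK lymphocyte sum in KO libraries, and the others overlapped between the groups. Csf3r, the receptor gene for the growth factor G-CSF, made up 98.0% of the neutrophil sum in KO libraries, and the other 3 genes summed to 477.9 to 4203 in control and 94.3 to 490.4 in KO libraries. Of the 7 mucous and ciliated epithelium genes tested, 2 were called higher and 1 lower.

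St6galnac1 and St6galnac2 lie beside each other on chromosome 11, both on the minus strand, St6galnac2 at chr11:116676703-116695782 and St6galnac1 at chr11:116765025-116775507, with 69.2 kb between them. The only tested gene between them, the lncRNA BC018473 (chr11:116752167-116757883, plus strand), showed the same pattern. Its normalized counts were 4.38, 1.38 and 1.58 in control, from 3, 2 and 1 reads, and 783.3, 221.9 and 463.3 in KO libraries, a log2 difference of 7.08 (SE 0.52, limma adjusted p = 1e-06). By log2 difference BC018473, St6galnac1 and St6galnac2 ranked 2, 5 and 40 among 18413 genes. The ranks of St6galnac1 and St6galnac2, and their part in the run below, follow from how the members were picked. Of 17548 genes placed in the RefSeq annotation, 122 (0.70%) were higher in KO by 3 or more on the log2 scale, and 4 runs of at least 3 such genes in a row were found, of which this was 1. In the other direction, 1234 genes (7.03%) were lower by 3 or more, in 36 such runs. The other runs of higher genes were made by genes of the H2-A and H2-E class II antigen presentation cluster on chromosome 17, by Hyal6, Hyal4, Spam1 and Hyal5 on chromosome 6 and by 3 genes of chromosome 1.

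The nearest tested gene on each side of this block did not share its direction. Cygb, which codes for the haem protein cytoglobin and lies next to St6galnac2, was at 239.6 ± 60.01 normalized counts in control and 54.6 ± 18.1 in KO libraries, with a log2 difference of -2.14 (limma adjusted p = 0.00015). Mxra7, next to St6galnac1, was at 978.9 ± 64.4 and 83.9 ± 24.1, with a log2 difference of -3.57 (limma adjusted p = 3.2e-07). Among the 13 tested genes within 250 kb of the block, 4 were called higher and 6 lower, and their log2 differences ran from -3.57 to 1.74.

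**Figure D4:**
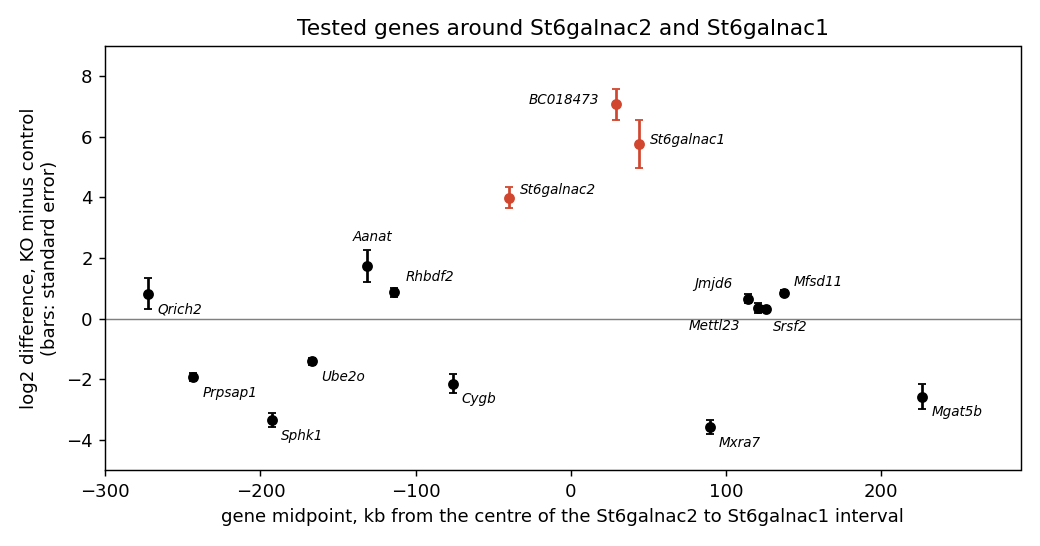
Log2 difference between Sox9 KO and control libraries for each tested gene within 250 kb of the interval from St6galnac2 to St6galnac1, against the distance of the gene's midpoint from the centre of the interval in kb (bars, standard error). The 3 genes of the interval, in red, lie at 3.99 or more, and no flanking gene exceeds 1.74.

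The block lies 3.89 to 3.98 Mb from the start of Sox9, on the same chromosome as the floxed allele. Within 5 Mb of Sox9, 26 of 117 tested genes (22.2%) were called higher and 46 (39.3%) lower, with a median log2 difference of -0.12. Within 2 Mb, 3 of 18 genes (16.7%) were called higher and 10 (55.6%) lower, with a median of -1.08. On chromosome 11 beyond 10 Mb of Sox9, 22.1% of 1108 genes were called higher and 29.5% lower. Any part of sequence linked to the floxed allele in the values of St6galnac1 and St6galnac2 cannot be told apart from that of the deletion.

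The other members show both arrangements, neighbours that moved together and neighbours that did not. St6galnac5 (chr3:152819885-152982210) and St6galnac3 (chr3:153198274-153725133), both lower in KO, are 216.1 kb apart on the same strand, with 1 tested lncRNA between them that was also called lower. This lncRNA, 4930482G09Rik, was near the limit of detection, at 4.39 ± 1.33 normalized counts in control and 0 in KO libraries. A count of 0 reads allows up to 1.18 to 4.56 normalized counts in a KO library. St6galnac4 (chr2:32587078-32599696) ends 12 bases before St6galnac6 (chr2:32599709-32620809) begins, and these differed in direction. St6gal1 is at chr16:23224729-23360350, St6gal2 at chr17:55445118-55514581, St8sia1 at chr6:142821541-142989528 and St8sia6 at chr2:13651018-13794734. Over all members, 16 different genes were the nearest tested neighbours, of which 4 were called higher, 7 lower and 5 not called. Among them, Vim, the gene of the intermediate filament vimentin beside St8sia6, was at 13064 ± 2903 normalized counts in control and 3242 ± 605.8 in KO libraries (limma adjusted p = 4.1e-06). Ak1, an adenylate kinase gene beside St6galnac6, was lower by 2.60 (limma adjusted p = 5.1e-06). Hacd1 beside St8sia6 and the lncRNA Gm7457 beside St8sia1 were lower by 1.61 and 2.03. Pigk beside St6galnac5, Pot1b beside St6gal2 and Rfc4 beside St6gal1 were higher by 1.13, 1.23 and 0.80 (limma adjusted p = 3.6e-06, 1.3e-05 and 0.015). C2cd5, Rtp1, Slc5a7, Pip5kl1 and 1700012D16Rik were not called. Exons of a gene on the opposite strand cover 7.01% of the exon bases of St6galnac2 and 1.46% to 4.07% of those of St6gal1, St6galnac5, St8sia1 and St8sia6, and whether the counting used strand is not stated.

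Promoter windows of 250 bases before to 50 after a start site were at hand from RefSeq (GRCm38.p6) for 7 of the 10 members, in 9 windows, and windows of St6galnac1, St6galnac2 and St6galnac5 were not used here. They were searched on both strands for letters that SOX proteins and the myeloid factor PU.1 are known to bind. AACAAT was in none of the 9 windows and in 10.7% of all 32851 windows, ACAAAG in 3 of 9 and in 18.7% of all, and GAGGAAGT in 1 of 9 and in 3.20% of all. The only match upstream of a start site was in St6gal2, 39 bases before it, and is shown in capitals. It lies inside the annotated gene, which begins at chr17:55445118, so it is upstream of this start site only.
St6gal2, chr17:55445331-55445360, plus strand: gcctgagtctgaACAAAGggagccagcggc
The other ACAAAG matches lay inside the first bases of St6galnac6 and of 1 of the 3 St6gal1 transcript starts. St6gal2 was called lower in KO, St6gal1 higher and St6galnac6 neither. A match is a description of the letters only.

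The genes whose values over the 6 libraries were most like St6galnac1, by Pearson correlation of log2(normalized count + 1), were Znfx1, 4933406J10Rik and Irf9 (each r = 0.999). Irf9 codes for the DNA-binding subunit of the interferon-stimulated factor ISGF3, and Znfx1 is a helicase gene induced by interferon. Irf9 was at 917.7, 1181 and 1379 normalized counts in control and 2430, 2058 and 2295 in KO libraries. The order of libraries was that of St6galnac1, which follows from choosing genes by this correlation. In control libraries the order of St6galnac1 rests on 0, 6 and 8 reads. For St6galnac2 they were Cxcl9 (r = 0.999), a chemokine gene induced by interferon gamma, the protease inhibitor gene Spint1 (r = 0.999) and the ribosomal protein gene Rps28 (r = 0.998). Cxcl9 was at 515.9, 598.7 and 677.8 normalized counts in control and 38301, 12650 and 12047 in KO libraries. KO replicate 1 was the highest, as for St6galnac2, which again follows from the choice. Any part of interferon in the values of St6galnac1 and St6galnac2 was not tested. Part of each r comes from the distance between the 2 groups. With 18413 genes tested, 50 genes other than members exceeded 0.99 with St6galnac1 and 155 with St6galnac2, so the genes named are the top of longer lists.

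Of 58 other genes, 31 were called higher and 9 lower in KO, against 22.2% and 28.8% of all genes tested, and their median log2 difference was 0.81. Their lists were made from general knowledge, but with earlier results of these data known. They cover sialic acid transfer, supply and breakdown, and also enzymes of the acceptor chains and sialic acid-binding lectins. In the transfer, supply and breakdown lists, 2 of 6, 1 of 4, 3 of 6 and 4 of 7 genes were called higher. In the acceptor and lectin lists these were 4 of 5, 7 of 12, 4 of 9 and 6 of 9. All 58 passed the filter. Among the alpha-2,3 sialyltransferases, which give many of the chains their first sialic acid, 2 of 6 rose and 1 fell. St3gal6 was at 1206 ± 97.6 normalized counts in control and 3002 ± 217.3 in KO libraries (2.49 times higher, limma adjusted p = 1.5e-06). St3gal2 (-0.14, adjusted p = 0.40) and St3gal5, which makes ganglioside GM3 (0.47, adjusted p = 0.055), were not called. St3gal4 fell by 0.94 on the log2 scale.

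The other alpha-2,8 sialyltransferases differed more. St8sia2 and St8sia4 build polysialic acid, the long sialic acid polymer carried by the adhesion molecule NCAM. St8sia2 was at 199.1 ± 29.02 normalized counts in control and 26.4 ± 4.91 in KO libraries (log2 difference -2.87, SE 0.28, limma adjusted p = 7.3e-06), whereas St8sia4 rose from 882.7 ± 162.9 to 1980 ± 630.4 (log2 difference 1.13, SE 0.22, adjusted p = 0.0014). St8sia5 and St8sia3, brain enzymes that act on gangliosides and on glycoproteins, fell by 3.13 and 2.27 (limma adjusted p = 3.6e-06 and 5.2e-06).

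In the supply of CMP-sialic acid, Gne, the gene of the first and rate-limiting enzyme, fell, with 1910 ± 140.7 normalized counts in control against 951.8 ± 162.4 in KO libraries (log2 difference -1.02, SE 0.13, limma adjusted p = 7.4e-05). Nans, Cmas and the Golgi transporter gene Slc35a1 rose by 0.97, 0.72 and 0.80, and Nanp and Cmah were not called. Of the 7 genes for removal and breakdown of sialic acid 4 rose and 1 fell: Ctsa, the lysosomal protective protein that stabilizes the sialidase, by 1.64 (limma adjusted p = 2.6e-07), Npl, the lyase that splits free sialic acid, by 1.29, the lysosomal sialic acid exporter gene Slc17a5 by 1.26 and the lysosomal sialidase gene Neu1 by 1.19. Neu4 fell by 2.39 (limma adjusted p = 0.0074), from 61.2 ± 37.2 normalized counts to 10.7 ± 6.70.

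The acceptor chains that the members act on had their own differences. Of 5 ganglioside backbone genes 4 rose, among them Ugcg, whose enzyme makes glucosylceramide, by 1.04, B4galt6 by 0.65 and B4galnt1, the GM2/GD2 synthase, by 1.63. B4galt5 was not called, at -0.27, and 0 of the 5 were lower by limma at an unadjusted p under 0.05, by edgeR or by DESeq2. Of 12 genes for O-linked chains 7 rose and 0 fell by limma, and 0 were lower with edgeR, with DESeq2 or at an unadjusted p under 0.05. This list holds only part of the Galnt family. Galntl6, a related gene that is not on it, was lower in KO by 3 or more on the log2 scale. Gcnt1, which branches these chains, rose by 1.21, Galnt1 by 0.90 and Galnt7 by 1.05. Galnt3 had the largest difference of the list, at 180.1 ± 64.3 normalized counts in control and 980.7 ± 109.0 in KO libraries (2.49, limma adjusted p = 5e-06). C1galt1, which adds the galactose that St6galnac2 prefers to find on its acceptor, was not called (0.27, adjusted p = 0.050).

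Of 9 genes for N-linked chains, on which St6gal1 acts, 4 rose and 2 fell. B4galt1, which adds the galactose that St6gal1 caps, rose from 2026 ± 213.5 to 7415 ± 747.4 normalized counts (log2 difference 1.87, SE 0.11, limma adjusted p = 2e-07), and B4galt2 fell from 377.6 ± 41.9 to 33.9 ± 7.93 (-3.46, SE 0.24, limma adjusted p = 8e-07). Mgat4a rose by 1.53, and Mgat5 was not called, at -0.41. Of 9 sialic acid-binding lectins 6 rose and 1 fell. Cd22, which binds the alpha-2,6-linked sialic acid made by St6gal1, rose from 503.5 ± 84.7 to 4869 ± 425.8 normalized counts (3.28, SE 0.13, limma adjusted p = 2.4e-08). Siglech and Cd33, both expressed by microglia, rose by 2.23 and 2.14, and Mag, an oligodendrocyte lectin that is also in the oligodendrocyte marker list, fell by 1.31. The microglia and macrophage marker sum was 3.81 times higher in the same KO libraries, and its part in these differences was not tested.

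**Figure D5:**
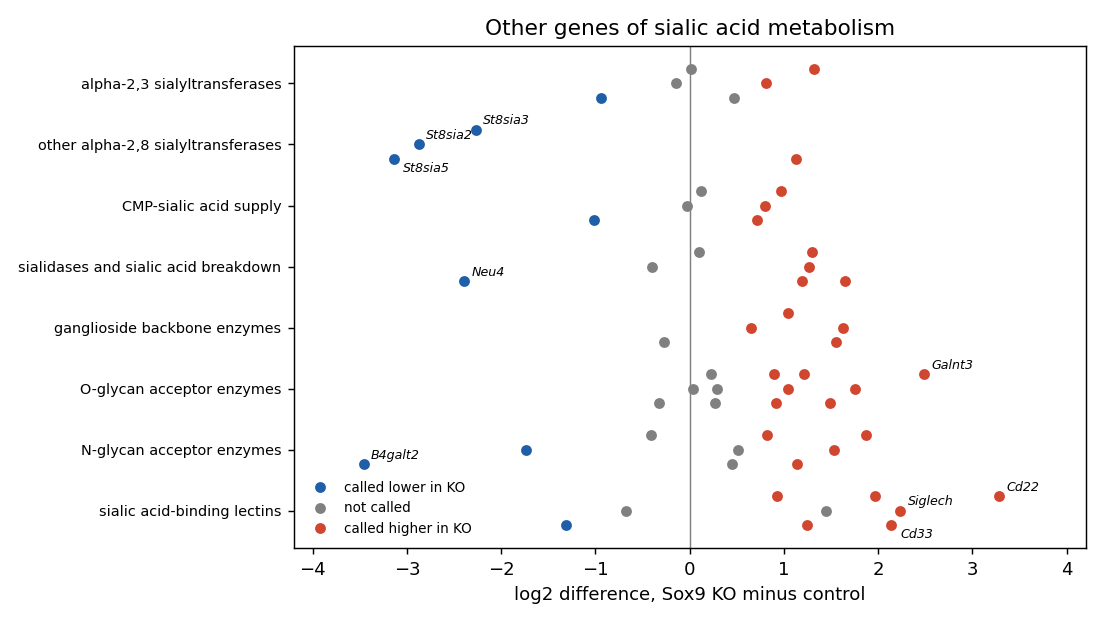
Log2 difference between Sox9 KO and control libraries for 58 genes in 8 lists, with genes called higher in red, called lower in blue and not called in grey. The lists cover sialic acid metabolism, enzymes of the acceptor chains and sialic acid-binding lectins. The named points are the called genes with a difference of at least 2 in size, and the ganglioside and O-glycan lists hold no gene called lower.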

How the data were processed

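Transcripts of TurboRFP-positive olfactory bulb cells were measured in 6 RNA-seq libraries, 3 control and 3 Sox9 KO, made with the NuGEN Trio kit from total RNA. The authors aligned reads to mm10 with STAR 2.5.0a, obtained gene counts with GenomicAlignments, which DESeq2 1.20.0 normalized, and the signal they deposited is 1 value per gene and library. It is named RPM, but in each library 100% of values were whole reads within 0.01 after division by 1 step, and the steps equalled median-of-ratios size factors, so the signal values are called normalized counts. The pseudocount (1) and the minimum mean (1) had been planned for RPM and were kept. Strandedness and gene annotation are not given in the sources used.

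All 18413 genes with a mean of at least 1 were compared by limma 3.58.1 under R 4.3.3, applied to log2(normalized count + 1) with a two-sided test, a variance trend and Benjamini-Hochberg adjustment over all of them. A gene was called at an adjusted p under 0.05 and 1.5-fold. Every adjusted p in the text is from this fit. Recovered reads were also tested with edgeR 4.0.16 and DESeq2 1.42.0, and the tests were checked on simulated data. Mice are the replicates. Same-numbered libraries of the 2 groups did not deviate together (correlations -0.05, -0.01 and -0.01). Floors for a count of 0 are 3 reads and cover counting error only.

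The members, the gene lists and the tests were chosen with earlier results of these data known, and the study's thresholds of p and fold change were taken, with p adjusted here, which the study does not state. Genes named are the members, Sox9, in each list the 3 genes of highest mean and called genes with a log2 difference of at least 2 in size, the nearest tested neighbours and the 3 genes most like St6galnac1 and St6galnac2. Some others of the same lists and of the chromosome 11 block were named after their values were seen. Positions are RefSeq GRCm38.p6 and were found for 17548 tested genes (95.3%). Lengths and coding sequences are from GENCODE transcripts with a RefSeq match, aligned with MAFFT 7.526. Alternatives are given in the closing section.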

Additional observations from a re-analysis of the deposited data

How the results depend on the processing

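Pseudocount, filter, scaling, variance trend, test and each single library were varied. All 10 members kept the sign of their difference in all 18 alternatives. The count of members called higher was 4 or 5 and called lower 3 to 5, and 4 to 5 and 4 without any 1 library. Among pathway genes 25 to 35 were called higher and 7 to 11 lower over all alternatives, and 31 to 33 and 7 to 9 without any 1 library. Over all genes, 4090 were called higher and 5299 lower, 3819 to 4035 and 4929 to 5129 without any 1 library, 2630 and 6597 with every library scaled to the same total without Rn45s, 2936 and 6191 with the same total, and 5380 and 4100 after quantile normalization. These scalings moved the median log2 difference of all genes by -0.31, -0.23 and 0.27, so the smaller differences (St6galnac4, St6galnac6, St6gal1) are relative to that shift. The cause of the lower count of 2630 was not tested. St8sia6 also lost its call without the variance trend and with either same-total scaling. With the replicate number as a block, 4048 and 5227 genes were called, the pathway counts were 31 and 9, and no member changed its call. With p unadjusted, 4228 and 5529 genes were called, the pathway counts were 32 and 9 and the member counts 5 and 4. Within 2 Mb of Sox9 16.7% of 18 genes were called higher and 55.6% lower, and within 10 Mb 22.0% and 29.7% of 286. Depth limits St6galnac1 in control (14 reads in 3 libraries), BC018473 (6 reads) and St6gal2 (112 and 51 reads).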

Other observations

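The subfamilies were also summed over their members. The 6 ST6GalNAc genes summed to 3080 to 3359 normalized counts in control and 2469 to 3310 in KO libraries, which overlapped, although 5 of the 6 were called in one direction or the other. The ST6Gal pair summed to 1390 to 1882 in control and 3569 to 4124 in KO libraries, nearly all of it St6gal1. The 2 ST8Sia genes summed to 811.4 to 890.6 in control and 512.3 to 1428 in KO libraries. All 10 members together summed to 5361 to 6069 in control and 7391 to 8080 in KO libraries.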
